A study of Mus musculus with 11 samples.

Results

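The 9 genes described here carry the G1 control of the cell cycle: the D-type cyclins Ccnd1, Ccnd2 and Ccnd3, the E-type cyclins Ccne1 and Ccne2, the Cip/Kip inhibitors Cdkn1a and Cdkn1b, and the INK4 inhibitors Cdkn2a and Cdkn2b. They were taken by name, with earlier results of these data known. All 9 members were listed among the 48952 genes of the bulk table and the 32285 genes of the single-cell matrices. The bulk libraries came from naive extra-embryonic endoderm (nEnd), mouse cells grown as a model of the primitive endoderm of the blastocyst, of a line with an OCT4-mCherry protein reporter and with no treatment. Live cells were sorted into 3 populations with 3 libraries each: Pdgfra+ cells carried the endoderm surface receptor PDGFRA alone, Oct4+ cells carried the reporter alone, and double-positive (DP) cells carried both. The 2 single-cell libraries came from nEnd of the label line EPUc, an inducible Oct4 loss-of-function line homozygous for an Oct4 allele that 4-hydroxytamoxifen (4OHT) inactivates; PDGFRA-positive cells had been sorted and then cultured without (-4OHT) or with (+4OHT) the inducer, 1 library each. Each design used a single line, and the cells were kept in a medium with Activin A, CHIR99021 and LIF on feeder fibroblasts, so the culture holds cells beside nEnd.

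In G1, D-type cyclins bind CDK4 and CDK6 and E-type cyclins bind CDK2. These kinases phosphorylate the retinoblastoma family of pocket proteins, which releases E2F factors and opens S phase. INK4 proteins block CDK4 and CDK6, whereas Cip/Kip proteins bind cyclin-CDK2 complexes and also help to assemble the D-type complexes. Mouse embryonic stem cells are known for a short G1 and for high cyclin E-CDK2 activity, and D-type cyclin levels usually rise as such cells differentiate.

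The bulk libraries held between 8019631 and 11642571 counted reads, and 14185 genes passed the filter on low counts, the 9 members among them. Levels are given as CPM, counts scaled to a common library total after TMM normalisation, and differences as log2 fold changes ± SE from the quasi-likelihood test of edgeR with Benjamini-Hochberg adjustment over all genes tested. A gene passed at an adjusted p below 0.05. The study calls same-group libraries biological replicates, without saying what was separate between them, and the p-values measure the spread between these libraries. Summed over 10 markers each, endoderm markers lay between 43484 and 59630 CPM in Pdgfra+, between 28572 and 44104 in DP and between 193 and 503 in Oct4+, and epiblast markers ran the other way, from 50.8 to 70.8, from 309 to 664 and from 3593 to 4704. The 10 markers of 2-cell-like cells summed to 416, 848 and 1464 CPM in the Oct4+ libraries 1, 2 and 3 and to at most 24.0 elsewhere. Feeder fibroblast markers summed to between 17.6 and 166 CPM, with the highest sum in Oct4+ library 1; of the 6 tested, 3 were higher and 1 lower in Oct4+ than in Pdgfra+ in edgeR. In bulk RNA from sorted cells, fewer cells with a transcript and less of it per cell cannot be told apart.

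The D-type cyclins differed most between the populations. Ccnd2 (GRCm38 chr6:127125162-127152193, minus strand) stood at 450, 384 and 313 CPM in the Pdgfra+ libraries, at 271, 90.9 and 176 CPM in DP and at 12.2, 23.9 and 1.77 CPM in Oct4+. All DP libraries lay below all Pdgfra+ libraries, and all Oct4+ libraries lay below both, so the 3 populations did not overlap. Ccnd1 (chr7:144929931-144939925, minus strand) ran the other way, at 2.69, 3.79 and 1.36 CPM in Pdgfra+, at 5.86, 4.01 and 3.40 CPM in DP and at 55.3, 91.8 and 6.32 CPM in Oct4+. The Oct4+ libraries were above both other populations but differed widely among themselves, and library 3 was close to the highest DP library. Ccnd3 (chr17:47505051-47599691, plus strand) varied little, with 178 to 224 CPM in Pdgfra+, 131 to 180 in DP and 108 to 193 in Oct4+, and all 3 populations overlapped.

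**Figure D1:**
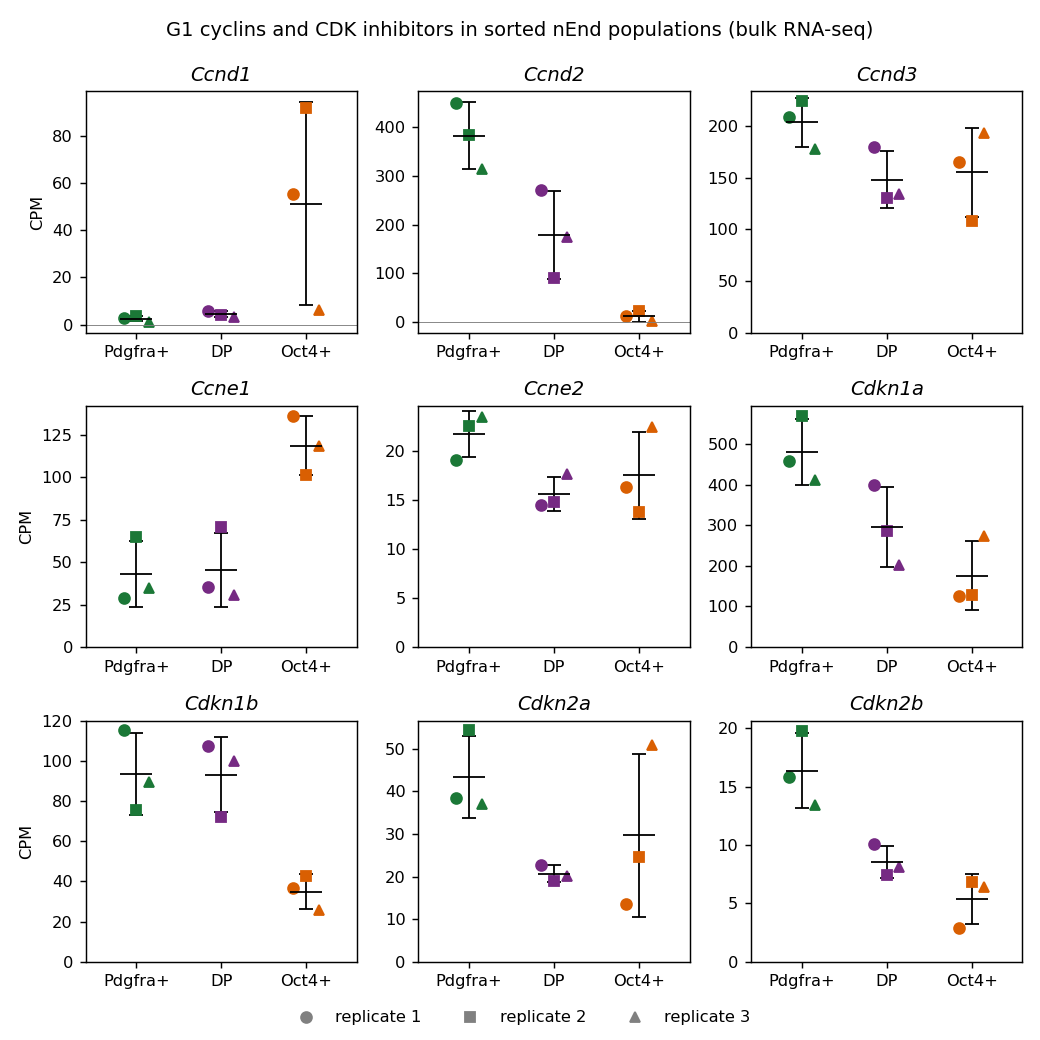
CPM of each of the 9 genes (vertical axes, CPM) in the 3 Pdgfra+, 3 DP and 3 Oct4+ libraries (points), with the mean and SD of each population. Ccnd2 stands at a mean of 382 in Pdgfra+, 179 in DP and 12.6 in Oct4+, while Ccne1 stands at 119 in Oct4+ against 42.9 and 45.5.

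Between Oct4+ and Pdgfra+, Ccnd2 was lower by 4.91 ± 0.72 on the log2 scale (edgeR, log2 fold change -4.91, adjusted p = 0.000222), a 30.1-fold difference. Ccnd1 was higher by 4.28 ± 0.82 (edgeR, adjusted p = 0.00117), or 19.5-fold. Against Oct4+, DP was higher in Ccnd2 by 3.82 ± 0.68 (edgeR, adjusted p = 0.00102) and had a log2 fold change of -3.53 ± 0.78 in Ccnd1 (edgeR, adjusted p = 0.00343). For Ccnd3 the log2 fold change was -0.39 ± 0.21 in Oct4+ against Pdgfra+ and -0.07 ± 0.21 in DP against Oct4+, and neither passed (edgeR, adjusted p = 0.135 and 0.806). The feeder markers were highest in Oct4+ library 1, where the collagen gene Col1a1 reached 68.3 CPM and Dcn 4.34 CPM (Dcn was at 0 reads in Oct4+ libraries 2 and 3), while Ccnd1 was highest in Oct4+ library 2. Without Oct4+ library 1 the Ccnd1 difference between Oct4+ and Pdgfra+ was 4.21 (edgeR, adjusted p = 0.00379). The part of feeder RNA in the Ccnd1 level was not tested. Leaving out Oct4+ library 2, the one with the most Ccnd1 and Ccnd2, moved the differences of both genes by more than 1.5-fold without ending a call: Oct4+ against Pdgfra+ was then 3.56 for Ccnd1 and -5.72 for Ccnd2 (edgeR, adjusted p = 0.00347 and 0.000258), and DP against Oct4+ was -2.80 and 4.62 (edgeR, adjusted p = 0.0116 and 0.000833).

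Per kilobase of merged exons, the D-type cyclins together summed to 72.2, 67.1 and 53.8 CPM per kb in Pdgfra+, to 50.6, 25.4 and 34.7 in DP and to 31.8, 34.4 and 23.5 in Oct4+. The merged exons cover all annotated transcripts, 3 of Ccnd1, 8 of Ccnd2 and 21 of Ccnd3, and not only those expressed here. Values set between genes therefore depend on this length. The sum in Pdgfra+ was above that in every other library, whereas DP and Oct4+ overlapped. Ccnd2 made up 60.7% to 66.2% of this sum in Pdgfra+, 38.0% to 57.0% in DP and 0.801% to 7.38% in Oct4+. Ccnd3 made up 33.0% to 38.1% in Pdgfra+ and 35.9% to 93.5% in Oct4+, and Ccnd1 5.70% to 56.7% of the Oct4+ sum. The Oct4+ libraries differed in this mix: Ccnd1 led in library 2, and Ccnd3 led in libraries 1 and 3. These shares are descriptions and carry no test.

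**Figure D2:**
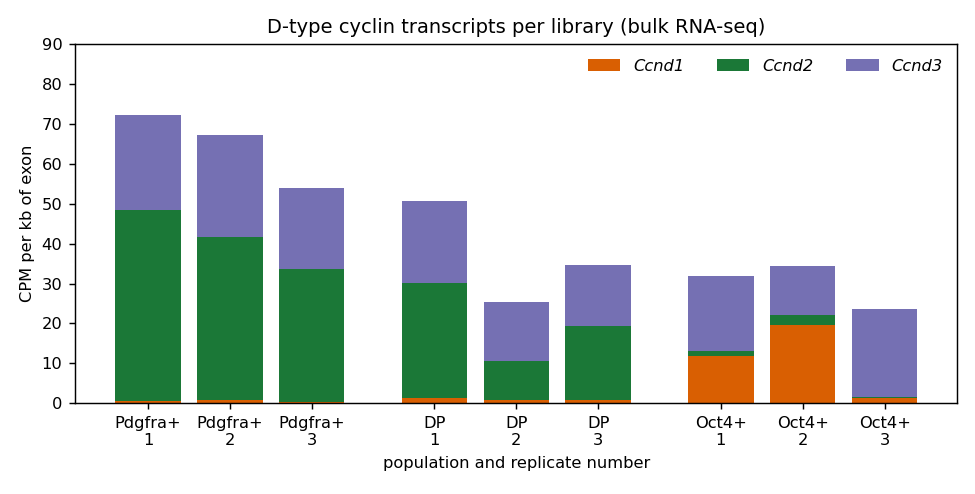
D-type cyclin level of each of the 9 bulk libraries as CPM per kb of merged exons, split into Ccnd1, Ccnd2 and Ccnd3. Ccnd2 makes up 60.7% to 66.2% of the sum in Pdgfra+ and at most 7.38% in Oct4+.

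Of the E-type cyclins, Ccne1 was higher in Oct4+ and Ccne2 did not pass in any comparison. Ccne1 (chr7:38097984-38107534, minus strand), the cyclin that activates CDK2 at the end of G1, stood at 28.8, 65.0 and 34.9 CPM in Pdgfra+, at 35.4, 70.6 and 30.5 CPM in DP and at 136, 102 and 118 CPM in Oct4+. The Oct4+ libraries lay above all others, and Pdgfra+ and DP overlapped, with library 2 the highest in both. Ccne1 was higher in Oct4+ than in Pdgfra+ by 1.47 ± 0.36 on the log2 scale, 2.77-fold (edgeR, adjusted p = 0.00508), and its log2 fold change in DP against Oct4+ was -1.38 ± 0.36 (edgeR, adjusted p = 0.00816). Ccne2 (chr4:11191351-11204779, plus strand), a second CDK2 partner, lay between 19.0 and 23.5 CPM in Pdgfra+, 14.5 and 17.6 in DP and 13.8 and 22.4 in Oct4+. Its log2 fold change was -0.31 ± 0.22 in Oct4+ against Pdgfra+ and -0.16 ± 0.22 in DP against Oct4+ (edgeR, adjusted p = 0.236 and 0.555).

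The promoter of Ccne1 is shown because this gene is a textbook E2F target and was the member most raised in Oct4+ beside Ccnd1. The 250 bases before its RefSeq start (GRCm38.p6, chr7:38107491-38107740, minus strand, 5′ to 3′, GC boxes in capitals) read as follows.
Ccne1: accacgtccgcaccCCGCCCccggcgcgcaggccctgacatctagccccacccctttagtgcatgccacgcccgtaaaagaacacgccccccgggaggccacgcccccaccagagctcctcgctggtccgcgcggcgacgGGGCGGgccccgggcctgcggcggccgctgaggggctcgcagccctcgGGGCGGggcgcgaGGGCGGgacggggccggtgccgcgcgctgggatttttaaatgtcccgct
Both strands were searched for the GC box GGGCGG, which binds SP1-type factors, and for the E2F letters TTTCCCGC, TTTCGCGC, TTTGGCGC and TTTGCCGC. The window held 4 GC boxes, 236, 110, 62 and 49 bases before the start, and none of the E2F letters. Of 32851 promoter windows of this length, 32.7% held a GC box and 1.86% one of the E2F strings. RefSeq windows were matched for 6 of the 9 members (9 windows, 6 of them with a GC box and 1 with an E2F string), and Ccnd1, Ccnd2 and Ccne2 had none.

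Both Cip/Kip inhibitors were lower in Oct4+ than in Pdgfra+. Cdkn1a (chr17:29090976-29100727, plus strand), which encodes p21, a p53 target that holds CDK2 back, stood at 457, 570 and 413 CPM in Pdgfra+, at 400, 287 and 203 CPM in DP and at 126, 128 and 274 CPM in Oct4+. Pdgfra+ lay above all other libraries, and DP overlapped Oct4+ through Oct4+ library 3, the library with the highest sum of 2-cell-like markers. The log2 fold change in Oct4+ against Pdgfra+ was -1.45 ± 0.33, 2.73-fold lower (edgeR, adjusted p = 0.00348). In DP against Oct4+ it was 0.75 ± 0.33 and did not pass (edgeR, adjusted p = 0.0740), whereas without Oct4+ library 3 it was 1.23 (edgeR, adjusted p = 0.00425). The part of the 2-cell-like cells in this library was not tested.

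Cdkn1b (chr6:134920401-134925513, plus strand), which encodes p27, stood at 116, 75.5 and 89.8 CPM in Pdgfra+, at 107, 72.1 and 100 CPM in DP and at 36.6, 42.6 and 25.7 CPM in Oct4+. DP and Pdgfra+ shared the same range, and all Oct4+ libraries lay below them. The log2 fold change was -1.42 ± 0.24 in Oct4+ against Pdgfra+ (edgeR, adjusted p = 0.000496) and 1.41 ± 0.24 in DP against Oct4+ (edgeR, adjusted p = 0.000662), or 2.67-fold and 2.66-fold. The DP population had Cdkn1b at a mean of 93.1 ± 18.6 CPM (SD, n = 3) beside 93.6 ± 20.3 in Pdgfra+.

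The INK4 inhibitors are neighbours on chromosome 4: Cdkn2b (chr4:89306299-89311039, minus strand, p15) lies just upstream of Cdkn2a (chr4:89274471-89294653, minus strand). Cdkn2a has 2 first exons that lead into shared downstream exons, an upstream one for p19ARF, which stabilises p53, and a downstream one for p16INK4a, which blocks CDK4 and CDK6. Counts per gene cannot separate these products. The 250 bases before each start (RefSeq, GRCm38.p6, minus strand, 5′ to 3′) are shown because the locus holds 3 starts under one gene level each for Cdkn2b and Cdkn2a; capitals mark the E2F string TTTCCCGC and GC boxes.
Cdkn2b, chr4:89311033-89311282: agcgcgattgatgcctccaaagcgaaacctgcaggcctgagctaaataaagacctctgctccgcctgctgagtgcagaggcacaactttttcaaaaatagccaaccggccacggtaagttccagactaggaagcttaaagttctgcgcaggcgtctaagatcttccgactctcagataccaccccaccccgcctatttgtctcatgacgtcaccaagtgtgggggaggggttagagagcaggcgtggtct
Cdkn2a upstream start, chr4:89294620-89294869: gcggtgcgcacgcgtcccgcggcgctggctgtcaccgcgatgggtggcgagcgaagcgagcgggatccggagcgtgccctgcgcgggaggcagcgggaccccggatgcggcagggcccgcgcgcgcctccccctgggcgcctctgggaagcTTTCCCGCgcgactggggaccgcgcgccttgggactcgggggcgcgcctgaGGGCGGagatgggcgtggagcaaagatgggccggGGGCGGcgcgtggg
Cdkn2a downstream start, chr4:89282193-89282442: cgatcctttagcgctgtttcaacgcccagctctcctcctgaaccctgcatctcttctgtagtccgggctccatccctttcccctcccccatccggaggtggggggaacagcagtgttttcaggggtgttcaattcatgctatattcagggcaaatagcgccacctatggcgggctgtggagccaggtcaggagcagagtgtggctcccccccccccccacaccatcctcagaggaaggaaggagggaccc
The window of the upstream Cdkn2a start held the E2F string 99 bases and GC boxes 48 and 14 bases before the start, with a GC content of 78.4%. The windows of the downstream start and of Cdkn2b held neither motif and had GC contents of 60.0% and 53.6%. A match in these letters is a description of the sequence and not a bound site.

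Cdkn2b was lower in Oct4+ than in Pdgfra+, and Cdkn2a did not pass in any of the 3 comparisons. Cdkn2b stood at 15.9, 19.8 and 13.5 CPM in Pdgfra+, at 10.1, 7.43 and 8.10 CPM in DP and at 2.87, 6.80 and 6.43 CPM in Oct4+, so the 3 populations did not overlap. Its log2 fold change was -1.62 ± 0.34 in Oct4+ against Pdgfra+, 3.07-fold lower (edgeR, adjusted p = 0.00212), and 0.68 ± 0.34 in DP against Oct4+, which did not pass (edgeR, adjusted p = 0.115). Cdkn2a stood at 38.5, 54.4 and 37.1 CPM in Pdgfra+, at 22.8, 18.9 and 20.1 CPM in DP and at 13.6, 24.5 and 50.9 CPM in Oct4+. DP was tight and below Pdgfra+, whereas the Oct4+ libraries overlapped both. The log2 fold change in Oct4+ against Pdgfra+ was -0.55 ± 0.39 (edgeR, adjusted p = 0.238), but without Oct4+ library 3 it was -1.19 (edgeR, adjusted p = 0.00541). In DP against Oct4+ it was -0.52 ± 0.39 (edgeR, adjusted p = 0.282); it was 0.12 without Oct4+ library 3 and -0.86 without Oct4+ library 1 (edgeR, adjusted p = 0.739 and 0.0421), so its direction turned on which library was left out.

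**Figure D3:**
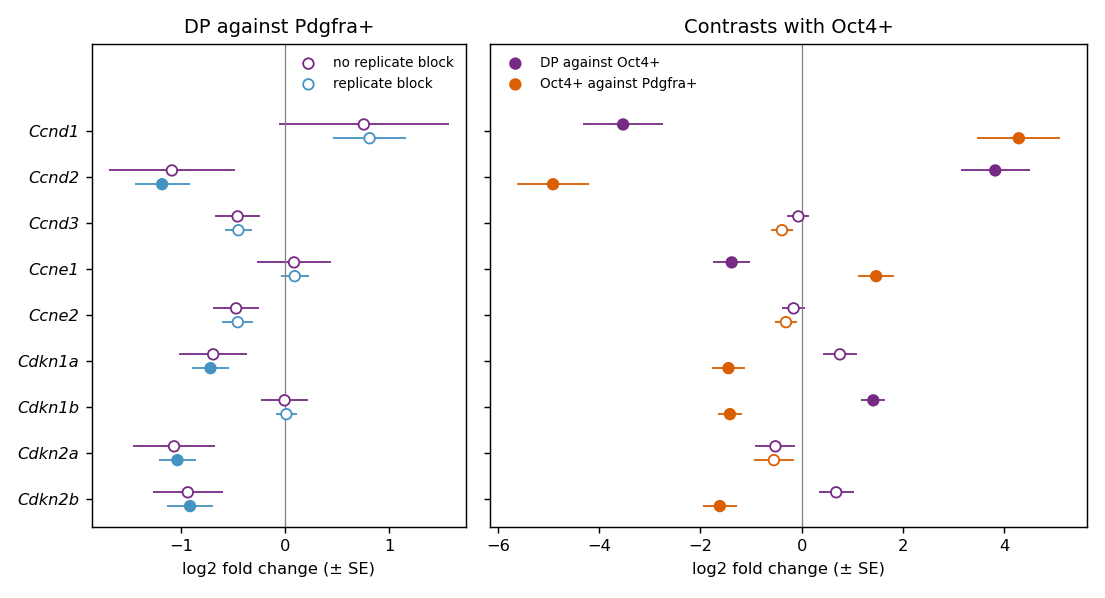
Log2 fold change of each of the 9 genes in the 3 comparisons (horizontal axis, log2 scale, first population minus second), with SE bars; filled symbols passed at an adjusted p below 0.05 in edgeR. The largest differences are Ccnd2 at -4.91 and Ccnd1 at 4.28 in Oct4+ against Pdgfra+. DP against Pdgfra+ is drawn without and with the replicate number as a block. None of its symbols is filled without the block, and those of Ccnd2, Cdkn1a, Cdkn2a and Cdkn2b are filled with it.

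Counted over the 9 members, 6 passed between Oct4+ and Pdgfra+, 2 higher in Oct4+ (Ccnd1 and Ccne1) and 4 lower (Ccnd2, Cdkn1a, Cdkn1b and Cdkn2b), where 63.2% of all genes tested passed. Of these, 3 (Ccnd1, Ccnd2 and Cdkn2b) also had an absolute log2 fold change above 1.5, the threshold the study used, which 32% of all genes passed. The same 6 were without overlap between the libraries, against 69.3% of all genes. Between DP and Oct4+, 4 members passed, Ccnd2 and Cdkn1b higher in DP and Ccnd1 and Ccne1 lower, where 56.2% of all genes passed, and 2 (Ccnd1 and Ccnd2) were past the fold threshold, as were 27.7% of all genes. Shares so close to those of all genes say nothing about the members as a group. The comparisons share libraries and are not independent. Without Oct4+ library 3, 8 members passed between Oct4+ and Pdgfra+ (Ccnd3 and Cdkn2a in addition, at -0.58 and -1.19) and 5 in DP against Oct4+.

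DP and Pdgfra+ cells were much closer. None of the 9 members passed in edgeR, where 6.87% of all genes did; 2 (Cdkn2a and Cdkn2b) were below 0.05 before adjustment, and DESeq2 also called 0. Even so, 5 members (Ccnd2, Ccne2, Cdkn1a, Cdkn2a and Cdkn2b) had all DP libraries below all Pdgfra+ libraries, where 34.2% of all genes did not overlap in one direction or the other. Their log2 fold changes in DP against Pdgfra+ were -1.09 ± 0.60 for Ccnd2, -0.47 ± 0.22 for Ccne2, -0.69 ± 0.33 for Cdkn1a, -1.07 ± 0.39 for Cdkn2a and -0.94 ± 0.33 for Cdkn2b (edgeR, adjusted p between 0.119 and 0.289). Ccnd1, Ccnd3, Ccne1 and Cdkn1b overlapped, at 0.76 ± 0.82, -0.46 ± 0.21, 0.08 ± 0.36 and -0.01 ± 0.23, and the signs of Ccne1 and Cdkn1b turned with the libraries left out or, for Cdkn1b, the scaling used.

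Libraries of DP and Pdgfra+ with the same number deviated together from their population means (r = 0.271, 0.477 and 0.321), so the comparison was also fitted with the replicate number as a block on these 6 libraries. Of the 9 members, 4 were then lower in DP, where 9.86% of the 12541 genes tested were: Ccnd2 at -1.19 ± 0.26, Cdkn2a at -1.04 ± 0.18, Cdkn2b at -0.92 ± 0.22 and Cdkn1a at -0.72 ± 0.18 (edgeR with replicate block, adjusted p = 0.0299, 0.0208, 0.0356 and 0.0386). Within the pairs 1, 2 and 3, the log2 difference of Ccnd2 was -0.73, -2.08 and -0.84, and that of Cdkn1a was -0.19, -0.99 and -1.02. For Cdkn2a it was -0.75, -1.52 and -0.87, and for Cdkn2b -0.64, -1.39 and -0.72. All 4 genes were lower in DP in all 3 pairs, with the widest gap of Ccnd2, Cdkn2a and Cdkn2b in pair 2. Ccnd3 (-0.22, -0.78 and -0.40) and Ccne2 (-0.39, -0.60 and -0.41) were also lower in all 3 pairs and widest in pair 2, and neither passed with the block. The epiblast markers of DP were highest in library 2 (664 CPM), and a link to these gaps was not tested. With the block but without pair 1, 5 members passed (Ccnd2, Cdkn1a, Cdkn2a, Cdkn2b and Ccnd3), without pair 2 only Ccnd2 and Cdkn2a, and without pair 3 none, so the call rests on few libraries. With the block fitted to all 9 libraries, no member passed in DP against Pdgfra+ (edgeR, adjusted p = 0.128 for Cdkn2a, 0.136 for Cdkn2b, 0.249 for Cdkn1a and 0.280 for Ccnd2).

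Per kilobase of merged exons, Cdkn1a had the highest mean level of the 9 in every population, at 135 ± 22.8 CPM per kb in Pdgfra+, 83.4 ± 27.8 in DP and 49.6 ± 23.9 in Oct4+ (SD, n = 3). In Pdgfra+ its lowest library (116 CPM per kb) was above the highest of the next genes, Ccnd2 (40.6 ± 7.24) and Cdkn2a (36.9 ± 8.22), which overlapped each other. In Oct4+ Ccne1 came next at 44.6 ± 6.55 and overlapped Cdkn1a, followed by Cdkn2a (25.3 ± 16.3) and Ccnd3 (17.7 ± 4.92). The lowest place was held by Ccnd1 in Pdgfra+ and DP, at 0.554 ± 0.258 and 0.939 ± 0.272 CPM per kb, and by Ccnd2 in Oct4+, at 1.34 ± 1.17. Ccnd2 and Ccnd1 thus exchanged the lowest place between Pdgfra+ and Oct4+, on this per-length scale of levels. The order of genes depends on the merged exon length, which covers all annotated transcripts.

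Partners of these genes were described beside all genes tested, of which 63.2% passed in Oct4+ against Pdgfra+. In DP against Oct4+ 56.2% of all genes passed, and in DP against Pdgfra+ 6.87%. Cdk6, a kinase that D-type cyclins activate, stood at 1.34, 1.69 and 2.71 CPM in Pdgfra+, at 3.37, 7.91 and 6.93 CPM in DP and at 43.0, 42.8 and 60.3 CPM in Oct4+, with no overlap between populations. It was higher in DP than in Pdgfra+ by 1.65 ± 0.38 and in Oct4+ than in Pdgfra+ by 4.65 ± 0.38 on the log2 scale (edgeR, adjusted p = 0.0344 and 7.57e-06). Of the 17 tested G1 kinases and their regulators, 8 were higher and 2 lower in Oct4+ against Pdgfra+, with Fbxw7, which marks cyclin E for destruction, at 1.23 and Mnat1, a subunit of the CDK-activating kinase, at 1.20. In DP against Pdgfra+ only Cdk6 and Cdk2, at 0.56, were higher (edgeR, adjusted p = 0.0402 for Cdk2), and with the replicate block Ccna2 was also, at 0.37 (edgeR, adjusted p = 0.0349). Against Oct4+, DP had 1 of the 17 higher, Cdk2 at 0.99, and 7 lower, with Cdk6 at -3.00 and Mnat1 at -0.98. In both comparisons with Oct4+ the share of the 17 that passed was not above that of all genes. These counts say nothing about the list as a group. Of 4 other genes named as CDK inhibitors, none passed in edgeR in DP against Pdgfra+ (1 before adjustment, 1 in DESeq2). None passed in Oct4+ against Pdgfra+ either (0 before adjustment and 0 in DESeq2). In DP against Oct4+, Cdkn1c (p57) was lower at -2.48 and Cdkn2c (p18) higher at 1.09 (edgeR, adjusted p = 0.0272 and 0.0253). Under the replicate block, Cdkn1c was lower in DP than in Pdgfra+ at -2.09 and Cdkn3 was higher at 0.74 (edgeR, adjusted p = 0.0193 and 0.0328).

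Genes that act after the G1 cyclins were described by lists, beside all genes tested, of which 4506 were higher and 4464 lower in Oct4+ against Pdgfra+ with a median log2 fold change of 0.01. Of the 13 pocket proteins and E2F factors, 6 were higher and 1 lower in Oct4+ against Pdgfra+, with E2f2 at 2.63, E2f1 at 1.23 and E2f8 at 1.07. In the DP cells 1 of the 13 was higher than in Oct4+ and 8 were lower, with E2f2 at -2.47, Tfdp2, an E2F partner, at -1.30 and Rbl1, a pocket protein, at -1.08, and E2f8 alone passed in DP against Pdgfra+, at 1.29 (edgeR, adjusted p = 0.0402). The replicate block added Rbl1 at -0.81 and Tfdp2 at -0.52, both lower in DP than in Pdgfra+ (edgeR, adjusted p = 0.0368 and 0.0395). Of the 32 S phase genes, 27 were higher and 1 lower in Oct4+ than in Pdgfra+, among them Cdca7, Hells and Uhrf1 at 2.17, 1.94 and 1.63, and the median of the list was 1.07. Their summed level lay between 2439 and 3562 CPM in the Pdgfra+ and DP libraries and between 5451 and 6426 CPM in Oct4+. Of the 37 G2 and mitosis genes, 26 were higher and none lower in Oct4+ than in Pdgfra+, with the chromatin protein Hmgb2 at 1.89 and the mitotic genes Cdc20 and Ccnb1 at 1.26 and 1.12 and a median of 0.64. Against Oct4+, 21 S phase genes and 11 G2 and mitosis genes were lower in DP and 1 of each list was higher. Of all genes, 27.9% were lower and 28.3% higher in DP in this comparison. The share of G2 and mitosis genes lower in DP was near that of all genes, and that of S phase genes was above it. No gene of either list passed in DP against Pdgfra+ in edgeR (3 S phase and 11 G2 and mitosis genes before adjustment, and 1 of each higher in DESeq2), whereas 2 S phase genes and 15 G2 and mitosis genes were higher in DP under the replicate block, with 1 G2 and mitosis gene lower; of all genes, 10.4% were higher and 9.86% lower in DP under this block.

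Genes of p53 and MYC gave a mixed picture beside Cdkn1a, which p53 induces and MYC represses in textbook accounts. Of the 19 tested p53 targets, 7 were higher and 5 lower in Oct4+ against Pdgfra+, where 63.2% of all genes tested passed. The 5 lower ones had the direction of Cdkn1a. Gdf15, a stress cytokine gene, was low in both populations, at means of 1.09 CPM in Pdgfra+ and 7.67 CPM in Oct4+. The largest log2 fold changes were those of Gdf15 (2.81), Perp (1.95) and the apoptosis gene Pmaip1 (1.68), which were higher where Cdkn1a was lower. Compared with Oct4+, DP had 4 of the 19 higher and 7 lower, where 56.2% of all genes passed, with Perp, Gdf15 and Pmaip1 at -1.96, -1.69 and -1.62. In DP against Pdgfra+ the apoptosis gene Bax alone was lower, at -0.53 (edgeR, adjusted p = 0.0434), joined under the replicate block by Eda2r at -0.37 (edgeR, adjusted p = 0.0447). Of the 10 MYC factors, 3 were higher and 4 lower in Oct4+ than in Pdgfra+: Myc was higher at 2.36, and its antagonists Mxd4 and Mxi1 were lower at -2.52 and -2.35. Myc was lower in DP than in Oct4+ at -2.77 and Mxd4 and Mxi1 were higher at 1.65 and 1.48, with 3 of the list higher and 1 lower. None of the 10 passed in DP against Pdgfra+ in edgeR (3 before adjustment, and 1 lower in DESeq2), whereas under the replicate block Mxd4 and Mxi1 were lower at -0.95 and -0.93 and Mxd3 was higher at 0.996 (edgeR, adjusted p = 0.0245, 0.0248 and 0.0443).

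For the 7 members whose population means differed by a log2 unit or more, the genes with the most similar profile were found by the root mean square difference of centred log2 CPM over the 9 libraries. Nearest to Ccnd2 was Foxa3 (0.37), a forkhead factor of endoderm, and nearest to Cdkn1b were Chmp1b2 (0.08) and Arf3 (0.14). For Ccne1 they were Lyar and Simc1 (both 0.23), for Cdkn1a Sh3yl1 (0.18) and Trp53inp2 (0.23), and for Cdkn2b Hyal1 (0.21) and Bex3 (0.22). Ccnd1 had no close neighbour, with Pdzd4 nearest at 0.51. Nearest to Cdkn2a was Fam216a at 0.32.

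In the single-cell data the targeted gene came first: over all cells kept, Oct4 (Pou5f1) was 40.7 CPM without and 2.47 CPM with 4OHT. The reads are 3′ tags, and tags outside the deleted part of the gene do not check the deletion itself. Within the Amn-low endoderm-like cells described next, Pou5f1 was 3.45 CPM without and 1.75 CPM with 4OHT, a ratio of 0.507 (0.337 to 0.788, a 95% counting interval), or 0.673 (0.435 to 1.09) with all deposited barcodes kept. Pou5f1 in these cells is taken below as a measure of background, so this ratio is not read as a response to 4OHT. After filtering on genes detected and mitochondrial share, 5099 cells were kept without 4OHT and 6266 with it, and 21 barcodes occurred in both libraries. Cells were clustered without the 9 members and without the S phase and G2 and mitosis lists, and clusters were named from markers. Amn-low endoderm-like cells, led by Pitx1, Flt1 and F3, numbered 636 and 6030 cells without and with 4OHT, or 12.5% and 96.2% of cells. Amn/Cubn endoderm-like cells (664), Calcoco2-led epiblast-like cells (1320) and Cdx1-led epiblast-like cells (2355) were nearly all in the -4OHT library, and 198 of the trophectoderm-like cells were in the +4OHT library. With 1 library per condition there is no test, so condition and library cannot be told apart, and the intervals below are 95% counting intervals of summed UMIs (exact Poisson for levels, conditional binomial for ratios), which cover counting error only.

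The classes of the -4OHT library showed the D-type cyclins in the same division as the sorted populations. Ccnd2 stood at 406 CPM (392 to 420) in Amn-low endoderm-like cells, at 107 CPM (101 to 113) in Amn/Cubn endoderm-like cells, at 28.5 CPM (26.5 to 30.6) in Calcoco2-led and at 15.2 CPM (14.1 to 16.4) in Cdx1-led epiblast-like cells. Ccnd1 stood at 5.54 CPM (4.04 to 7.41), 7.42 CPM (5.98 to 9.10), 82.3 CPM (78.9 to 85.8) and 48.3 CPM (46.3 to 50.4) in the same order. Of the D-type cyclin UMIs, Ccnd2 gave 78.8% in Amn-low endoderm-like cells and 16% and 10.1% in the epiblast-like classes, and Ccnd1 gave 1.07%, 46.3% and 32.2%. The epiblast-like classes thus carried both Ccnd1 and Ccnd3, with Ccnd3 at 66.8 CPM (63.7 to 70.0) and 86.6 CPM (84.0 to 89.3). The 19 feeder-like cells of this library had Ccnd1 at 558 CPM (496 to 625) and Ccnd2 at 571 CPM (508 to 640), above each of these classes. In the 31 feeder-like cells of the +4OHT library Ccnd1 was 51.3 CPM (37.9 to 67.8) and Ccnd2 360 CPM (323 to 400). Feeder markers summed to 4110 CPM in the feeder-like cells without and 10897 CPM in those with 4OHT.

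Ccne1 was also highest in the epiblast-like classes, at 116 CPM (112 to 120) and 107 CPM (104 to 110), beside 43.8 CPM (39.4 to 48.6) in Amn-low and 49.7 CPM (45.9 to 53.8) in Amn/Cubn endoderm-like cells. Of these 4 classes, all 4 inhibitors were highest in Amn-low endoderm-like cells, with Cdkn1a at 307 CPM (295 to 319), Cdkn1b at 52.2 CPM (47.3 to 57.4), Cdkn2a at 126 CPM (118 to 134) and Cdkn2b at 27.3 CPM (23.8 to 31.2). Amn/Cubn endoderm-like cells did not share this, since their Cdkn1a (82.4 CPM, 77.4 to 87.6), Cdkn2a (40.5 CPM) and Cdkn2b (5.24 CPM) lay at or below the Calcoco2-led epiblast-like cells (149, 49.9 and 6.31 CPM). Of the inhibitors only Cdkn1b separated both endoderm-like classes, at 32.8 CPM in Amn/Cubn cells, from the epiblast-like ones, at 15.1 and 17.0 CPM. The S phase genes summed to 2483 and 2242 CPM in the endoderm-like and to 3895 and 3989 CPM in the epiblast-like classes. In the +4OHT library, Cdkn1a was 544 CPM (521 to 568) in trophectoderm-like cells and 353 CPM (349 to 357) in Amn-low endoderm-like cells. No other class of this library had 50 cells. The trophectoderm-like cells there also carried endoderm markers at 2946 CPM, beside trophectoderm markers at 236.5 CPM. The share of endoderm RNA in them was not tested.

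Within Amn-low endoderm-like cells, the largest class with cells in both libraries, both cyclins named by the size rule (at least 1.5-fold apart with at least 20 CPM in 1 library) were lower with 4OHT. Ccnd2 was 406 CPM without and 152 CPM (150 to 155) with 4OHT, a ratio of 0.375 (0.361 to 0.390), and Ccne1 was 43.8 and 23.7 CPM (22.7 to 24.7), a ratio of 0.541 (0.483 to 0.607). These were 2 of the 7 members that reached 20 CPM, with none higher, where 9.67% of 6652 genes were at least 1.5-fold apart. Ccnd1 and Ccne2 stayed under 20 CPM, with ratios of 0.518 (0.376 to 0.729) and 0.750 (0.614 to 0.923). Cdkn2b was the inhibitor with the largest ratio, at 27.3 and 40.5 CPM (39.2 to 41.9) or 1.48 (1.29 to 1.71), just short of the rule. Cdkn1a (1.15, 1.10 to 1.20), Cdkn1b (1.19, 1.07 to 1.31), Ccnd3 (0.914, 0.851 to 0.982) and Cdkn2a (1.02, 0.956 to 1.09) had ratios near 1 over the class as a whole, and that of Cdkn2a was 0.941 with all deposited barcodes kept. Parts of the class differed from these ratios, as given below. In the same cells the S phase genes summed to 2483 CPM without and 1905 CPM with 4OHT, and the G2 and mitosis genes to 5397 and 4242 CPM.

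**Figure D4:**
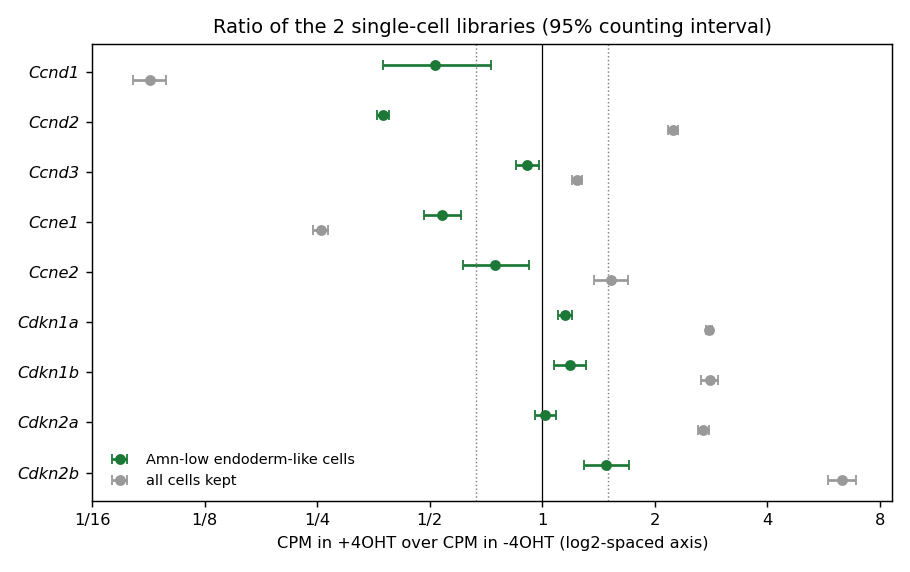
Ratio of CPM with 4OHT to CPM without it (log axis) for each of the 9 genes, in Amn-low endoderm-like cells and over all cells kept, with 95% counting intervals and dotted lines at 1.5-fold in either direction. Ccnd2 lies at 0.375 within the class and at 2.24 over all cells.

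Over all cells kept the picture differed, since the libraries hold different classes. By the same rule 5 members were higher with 4OHT (Ccnd2 at 2.24, Cdkn1a at 2.80, Cdkn1b at 2.81, Cdkn2a at 2.70 and Cdkn2b at 6.34) and 2 were lower (Ccnd1 at 0.0891 and Ccne1 at 0.256), 7 of the 8 members that reached 20 CPM, where 56.1% of 7111 genes were at least 1.5-fold apart. Ccnd2 turned direction between the views: it was lower with 4OHT within Amn-low endoderm-like cells and higher over all cells. Ccne1 was lower in both, at 95.6 and 24.4 CPM over all cells.

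The share of cells with a UMI was set at an equal depth by thinning each cell to 5000 UMIs, which left out 10 and 76 Amn-low endoderm-like cells of the -4OHT and +4OHT libraries. Ccnd2 was then found in 72.0% (68.4 to 75.5, exact binomial) and 39.7% (38.4 to 40.9) of these cells, and in 86.8% and 60.9% without thinning. Ccne1 was found in 16.5% (13.6 to 19.6) and 9.36% (8.63 to 10.1), and in 35.7% and 22.6% without thinning. For Cdkn1a the thinned shares were 66.5% and 70.0%, for Cdkn2a 42.5% and 42.7% and for Cdkn2b 12.3% and 15.3%. As a measure of background, Gata6, an endoderm factor, was found in 3.72% and 1.88% of the thinned epiblast-like cells and Pou5f1 in 0.639% and 0.957% of the Amn-low endoderm-like cells, at median depths of 19197, 18794, 11975.5 and 12557.5 UMIs before thinning. Ccnd1, at 2.08% and 1.24% of Amn-low endoderm-like cells, lay above Pou5f1 in the same cells and below Gata6 in the Calcoco2-led cells. With 4OHT, Ccnd1 was 2.87 CPM (2.52 to 3.25) in the Amn-low endoderm-like cells and Pou5f1 1.75 CPM (1.48 to 2.05). Whether Ccnd1 is expressed at this low level there cannot be decided from these shares.

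The Amn-low endoderm-like class was not uniform, and its parts were filled unequally by the libraries. At a finer resolution it split into cells led by Acta2, Ctla2a and Tagln (125 and 2539 cells without and with 4OHT), by Emb, Nefl and Lin28a (476 and 2119 cells) and by Gkn1, Gkn2 and Nupr1 (34 and 1367 cells). Ccnd2 was lower with 4OHT in each, at 616 and 224 CPM, at 358 and 94.7 CPM and at 308 and 67.1 CPM in that order. Ccne1 was lower in the first and second of these, at 45.8 and 25.8 CPM and at 44.5 and 27.0 CPM, and was 17.1 CPM (6.28 to 37.3) and 11.2 CPM (9.54 to 13) in the third, where the intervals overlapped. Cdkn2b, higher with 4OHT over the class, was lower with 4OHT in the first, at 82.3 CPM (68.9 to 97.5) and 62.1 CPM (59.7 to 64.5). Its intervals overlapped in the second, at 12.7 CPM (10.1 to 15.9) and 14.5 CPM (13.2 to 16). They also overlapped in the third, at 28.5 CPM (13.7 to 52.5) and 31.9 CPM (29.1 to 35.0). Cdkn1a in the first was 457 CPM (425 to 492) without and 458 CPM (451 to 464) with 4OHT. In the second it was lower with 4OHT, at 262 CPM (249 to 275) and 231 CPM (225 to 236). In the third it was also lower, at 400 CPM (336 to 471) and 305 CPM (296 to 314). Cdkn2a was lower with 4OHT in the first, at 212 CPM (190 to 235) and 164 CPM (160 to 168), and its intervals overlapped in the others. The cells led by Acta2, Ctla2a and Tagln had the highest Cdkn1a, Cdkn2a and Cdkn2b over both libraries, at 458, 166 and 62.8 CPM, and they were a larger part of the class with 4OHT than without it.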

How the data were processed

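The bulk table, deposited by the authors, holds raw read counts per gene for 9 libraries. The libraries were made with a directional kit and read from one end. The aligner, counter, build and strand use behind the bulk counts were not given in the sources used here. UMI counts per gene and barcode in the single-cell matrices, deposited by the authors, came from Cell Ranger 6.1.2 (matrix header) on mm10. Groups came from the labels. The table also held 35 blank lines with 0 counts, which were dropped.

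The members and gene lists were chosen with earlier results of these data known. Text genes are the 9 members, up to 3 genes per list and comparison with the largest change among those passed, the 2 nearest profiles per member, leading genes of clusters, and markers or list genes a result turns on (Col1a1, Dcn, Pou5f1, Gata6, and list genes passing only under the replicate block; chosen after their values were seen). The authors used DESeq2 with a threshold of 1.5 on log2 fold change. Here edgeR 4.0.16 (filterByExpr, TMM, glmQLFTest) was fitted to all 9 libraries with population as the term, with DESeq2 1.42.0 as an alternative; R was 4.3.3. The script was tested on simulated counts. CPM used TMM-scaled totals, and per-kb levels used merged exons of GENCODE on GRCm38. Replicate libraries of a group differed beyond sampling noise. Same-numbered DP and Pdgfra+ libraries correlated (r = 0.271, 0.477 and 0.321), and those of other pairs of populations lay between -0.0728 and 0.152. The labels give no shared culture or day, so the pairing comes from these values.

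Cells with at least 1500 genes and at most 10% mitochondrial UMIs were kept. Scrublet in scanpy 1.11.5 marked 168 of 5267 cells (3.19%) without 4OHT, which were removed, and 0 of 6266 with 4OHT, where the caller did not work, so doublets remain there. Cells were clustered with 2000 variable genes, 20 components, 15 neighbours and resolution 0.2 (0.5 for the finer split) with leidenalg 0.10.2. Median depth was 17762 and 12684.5 UMIs. Counting intervals are at 95%.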

Additional observations from a re-analysis of the deposited data

How the results depend on the processing

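For DP against Pdgfra+, 0 members passed in edgeR, 1 with no filter on low counts (Cdkn2a), 1 with only the 6 libraries compared (Cdkn2a) 4 with the replicate block on these 6 and 0 with the replicate block on all 9; the cause was not tested. With the replicate block and, chosen after seeing the data, without replicate pair 1, 2 or 3, 5, 2 and 0 passed. The replicate block changed no call of a member in DP against Oct4+ or Oct4+ against Pdgfra+. Leaving out 1 library at a time gave 0 to 0 members in DP against Pdgfra+, 4 to 5 in DP against Oct4+ and 6 to 8 in Oct4+ against Pdgfra+. Cdkn1a passed in DP against Oct4+ with no filter on low counts, at 0.80 (edgeR, adjusted p = 0.00481), and without DP library 3, at 0.99 (edgeR, adjusted p = 0.0353).

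In bulk, directions turned only for values that did not pass. In DP against Pdgfra+ Ccne1 ranged from -0.38 to 0.51 with 1 library left out, below 0 without Pdgfra+ library 1, Pdgfra+ library 3 or DP library 2, and was -0.00825 with the replicate block without pair 1. Cdkn1b there was 0.0124 with DESeq2 size factors, 0.0243 with the upper quartile, 0.00654 with no filter, 0.00054 and 0.0101 with the replicate block on 9 and on 6 libraries, 0.00888 with 6 libraries, -0.14 to 0.17 with 1 library left out, 0.0666 and 0.0386 with the replicate block without pair 1 and 2, and 0.0123 in DESeq2. With 1 library left out of DP against Oct4+, Ccnd3 ranged from -0.27 to 0.12, Ccne2 from -0.30 to 0.0584 and Cdkn2a from -0.86 to 0.12, each at its highest without Oct4+ library 3. Of the values of single genes in bulk, 366 kept direction and side of the threshold, 19 passed only in the alternative, these 20 turned and none lost its call. Upper-quartile scaling moved the median of all genes by -0.22 in DP against Oct4+ and 0.25 in Oct4+ against Pdgfra+, with no call of a member turned. In single cells the counts of members by the size rule stayed at 2 and 7 in all 4 alternatives for each view, while 12 ratios moved past their counting interval. Within Amn-low endoderm-like cells the Cdkn2a ratio of 1.02 was 0.941 with all deposited barcodes, 0.964 with predicted doublets kept and 0.994 without mitochondrial and ribosomal protein genes in the total.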

Other observations

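The smaller cell classes are given as values only. The 93 2-cell-like cells without 4OHT had Ccnd1 at 36.6 CPM (27.7 to 47.4), Ccne1 at 79.7 CPM (66.3 to 95), Cdkn1a at 109 CPM (93.4 to 127) and Ccnd2 at 16.7 CPM (10.9 to 24.5). The 198 trophectoderm-like cells with 4OHT had Ccnd3 at 134 CPM (122 to 146), which gave 65.3% of their D-type cyclin UMIs, and Cdkn2b at 16.5 CPM (12.7 to 21.1). Feeder-like cells had Ccnd1 at 558 CPM in the -4OHT library (19 cells) and at 51.3 CPM (37.9 to 67.8) in the +4OHT library (31 cells), and Cdkn2a at 150 CPM (119 to 187) and 93.1 CPM (74.8 to 115). These cells also carried endoderm markers at 1590 and 4529 CPM, and the share of endoderm RNA in them was not tested.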
